A study of Homo sapiens with 26 samples.

Results

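Mitochondrial ribosomal protein genes were followed in U2OS, a human osteosarcoma cell line in wide use, here with a luciferase reporter of the clock gene ARNTL (Arntl::dLUC). The genes were the rows of the expression table named MRPL or MRPS with a number, or MRPS with a number and a letter from A to C. This gave 77 genes on 78 rows, 48 MRPL genes of the large subunit and 29 MRPS genes of the small subunit, out of 11838 genes tested and 19806 rows in all. All 77 had a mean of at least 1 FPKM, a level set by length (fragments for each kilobase of transcript) and by the total mapped fragments of a library, over the 26 libraries. None was left out, and the gene nearest the limit was MRPL41, with a mean of 1.78 FPKM. MRPS17 stood on a second row, which belongs to a readthrough transcript and had a lower mean, and the higher row was used.

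Cells received neutral DMEM (pH 7.4) or acidic DMEM (pH 6.3). Each held 0.1 µM dexamethasone, a glucocorticoid that brings the clocks of cultured cells to 1 phase, with PIPES and HEPES at 25 mM each as buffers and 5% serum. Dishes were sealed and kept at atmospheric CO2. Polyadenylated RNA was sequenced at intervals of 4 h up to 52 h, with 1 library per pH and time and so 13 libraries per pH. The libraries of 4 to 24 h came from 1 set of plates and those of 28 to 52 h from another, treated 24 h apart, and both media were present in each. Time in the medium and plate set therefore cannot be told apart. Replicates within a time point were not taken, so each p-value rests on the spread among hours, in which change over time and noise are mixed.

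The mitochondrial ribosome is built from ribosomal RNAs coded in mitochondrial DNA and from proteins coded in the nucleus, made in the cytosol and imported. It makes only the proteins that mitochondrial DNA codes for, which are subunits of the respiratory chain and of the ATP synthase. Many of its proteins descend from bacterial ribosomal proteins, and others are found only in mitochondria. The small subunit reads the messenger RNA, and the large subunit joins the amino acids and holds the exit tunnel for the new chain. The names do not follow the place of the protein in every case: MRPS18A and MRPS30 sit in the large subunit, and MRPS36 is now known as a component of 2-oxoglutarate dehydrogenase.

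Column sums ran from 600589 to 700348 FPKM. The depth estimated from the spacing of low values was 20.1 to 36.1 M fragments (M for mega) in 24 libraries, and 9.85 and 11.4 M at pH 7.4, 12 h and pH 6.3, 8 h. It takes the widest spacing that fits as 1 fragment: of the values up to that size, 81.5% to 95.0% lay within 0.1 of it and at most 2.54% where smaller fragment counts would sit at a depth 3 times as high. In 4 libraries the deviation of a gene from its mean followed the GC content of its transcript across 11815 genes, with Pearson's r of 0.63 at pH 7.4, 28 h and 0.55 at pH 6.3, 20 h, and of -0.53 and -0.62 at pH 7.4, 44 and 48 h. Of 5 mesenchymal and bone markers, 4 had a median of at least 1 FPKM (VIM, SPARC, COL1A1 and RUNX2), while COL1A2 had 0.755 FPKM. Of 5 epithelial markers 3 passed that level, led by EPCAM at a median of 5.10 FPKM, whereas no leukocyte marker of 5 and no endothelial marker of 3 did.

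Levels of the 77 genes spanned a wide range. Their mean FPKM over the 26 libraries had a median of 43.4, against 13.6 over all genes tested, and 71 genes had a mean of at least 10 FPKM. The median level was 43.5 FPKM in the large and 43.4 FPKM in the small subunit. The highest mean levels belonged to large subunit genes: MRPL51 at 471 FPKM, MRPL33 at 285 FPKM and MRPL13 at 165 FPKM. The lowest belonged to MRPL41 at 1.78 FPKM, MRPL57 at 4.82 FPKM, both coding for proteins particular to mitochondria, and MRPS12 at 7.16 FPKM, which codes for a protein of the decoding site. MRPL41 ran from 0.405 to 5.65 FPKM at pH 7.4 and from 1.04 to 4.49 FPKM at pH 6.3, and its transcript had the highest GC content of the 77 (71.9%). The genes lay on 21 chromosomes, and 13 of them overlapped another protein-coding gene on the same strand in GENCODE 29.

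Promoters were compared because the genes are scattered over the genome and moved together at several hours. RefSeq promoters of 300 bases (250 before to 50 after the start, GRCh38.p14) were found for 68 of the 77 genes and were searched on both strands for 3 motifs, counting a promoter once per motif. CCGGAAG, a core of the ETS family that includes GABPA, was in 28 of 68 member promoters (41.2%), in 20.0% of the promoters of genes tested and in 10.7% of all 27305 promoters. AAGATGGC, the core bound by YY1, was in 20 member promoters (29.4%), against 5.67% and 3.03%. CGCATGCGC, bound by NRF1, was in 3 member promoters (4.41%), against 3.81% and 2.10%. The large and small subunits held the YY1 letters at 29.3% and 29.6% and the ETS letters at 39.0% and 44.4%. Promoters of 69 cytosolic ribosomal protein genes held them at 11.6% and 33.3%.

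The matches before the start are shown for some members, picked after their values were seen. Others with a match, such as MRPL36 (YY1) and MRPL38 (ETS), are not printed. The motif is in capitals, with 22 bases on each side where the 250 bases allow. MRPL40, MRPL47 and MRPS31 were lower at pH 6.3, while MRPL3 and MRPS18C were called higher there within 28 to 52 h. Within 4 to 24 h MRPL3 was not called and MRPS18C was called lower. The sites lie at chr22:19432512-19432544 (plus strand, MRPL40), chr3:179604649-179604699 and chr3:179604701-179604752 (minus strand, MRPL47), chr13:40771194-40771244 (minus strand, MRPS31), chr3:131502975-131503025 (minus strand, MRPL3) and chr4:83455814-83455864 and chr4:83455900-83455952 (plus strand, MRPS18C).
MRPL40 (ETS): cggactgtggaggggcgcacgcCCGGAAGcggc
MRPL47 (ETS): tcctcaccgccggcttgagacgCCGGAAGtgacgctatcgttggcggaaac
MRPL47 (YY1, reverse complement): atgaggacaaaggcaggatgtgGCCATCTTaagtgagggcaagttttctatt
MRPS31 (ETS): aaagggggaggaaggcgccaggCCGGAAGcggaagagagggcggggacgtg
MRPL3 (ETS): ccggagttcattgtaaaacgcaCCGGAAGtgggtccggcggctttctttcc
MRPS18C (ETS): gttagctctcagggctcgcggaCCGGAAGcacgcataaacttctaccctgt
MRPS18C (NRF1, reverse complement): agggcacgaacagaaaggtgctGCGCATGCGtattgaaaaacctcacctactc
The median difference between the media over 4 to 24 h, on the log2(FPKM + 1) scale, was -0.32 in the 28 members with the ETS letters and -0.33 in the 40 without. It was -0.35 in the 20 members with the YY1 letters and -0.29 in the 48 without. It was -0.47 in the 3 members with the NRF1 letters and -0.30 in the 65 without. No motif of the 3 shown here overlapped another in the printed windows.

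Hour by hour, the summed level differed most between the media from 8 to 20 h. Summed over the 77 genes, pH 7.4 held 4346 FPKM and pH 6.3 held 4348 FPKM at 4 h, a ratio of 1.00. At 8 h the sums were 4704 and 3575 FPKM, and at 12 h 4748 and 3333 FPKM, ratios of 0.760 and 0.702. The gap then closed, with ratios of 0.810 at 16 h, 0.882 at 20 h and 0.986 at 24 h. From 28 to 48 h the sum was higher at pH 6.3, with ratios from 1.01 to 1.10, and at 52 h the ratio was 0.961. Abundant genes weigh most in such a sum. At 32 h, the hour of the highest ratio, the sums were 4079 FPKM at pH 7.4 and 4498 FPKM at pH 6.3. MRPL51 then had 426 and 587 FPKM and MRPL33 263 and 379 FPKM. At that hour 39 of 77 members (50.6%) were higher at pH 6.3, beside 44.6% of all genes tested. In RNA of whole dishes scaled to the library total, less RNA per cell and fewer cells that express a gene cannot be told apart.

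Counted by gene, 42 of 77 members were higher at pH 6.3 at 4 h. The number was 8 at 8 h, 10 at 12 h, 13 at 16 h, 25 at 20 h and 32 at 24 h. Between 28 and 48 h it was 32 to 45, and at 52 h 27. The median difference of log2(FPKM + 1) over members, pH 6.3 minus pH 7.4, was 0.01 at 4 h, -0.42 at 8 h, -0.53 at 12 h, -0.45 at 16 h and -0.34 at 20 h. Over all genes tested it was 0.04, -0.13, -0.23, -0.26 and -0.07 at those hours, so the members lay lower than the typical gene from 8 to 20 h. From 24 h on, the member median ran from -0.17 to 0.12 and lay within 0.1 of the median of all genes at each hour. The libraries of low depth belong to the pairs of 8 and 12 h, and 1 of those with a GC trend to 20 h. The 16 h pair holds none of them.

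**Figure D1:**
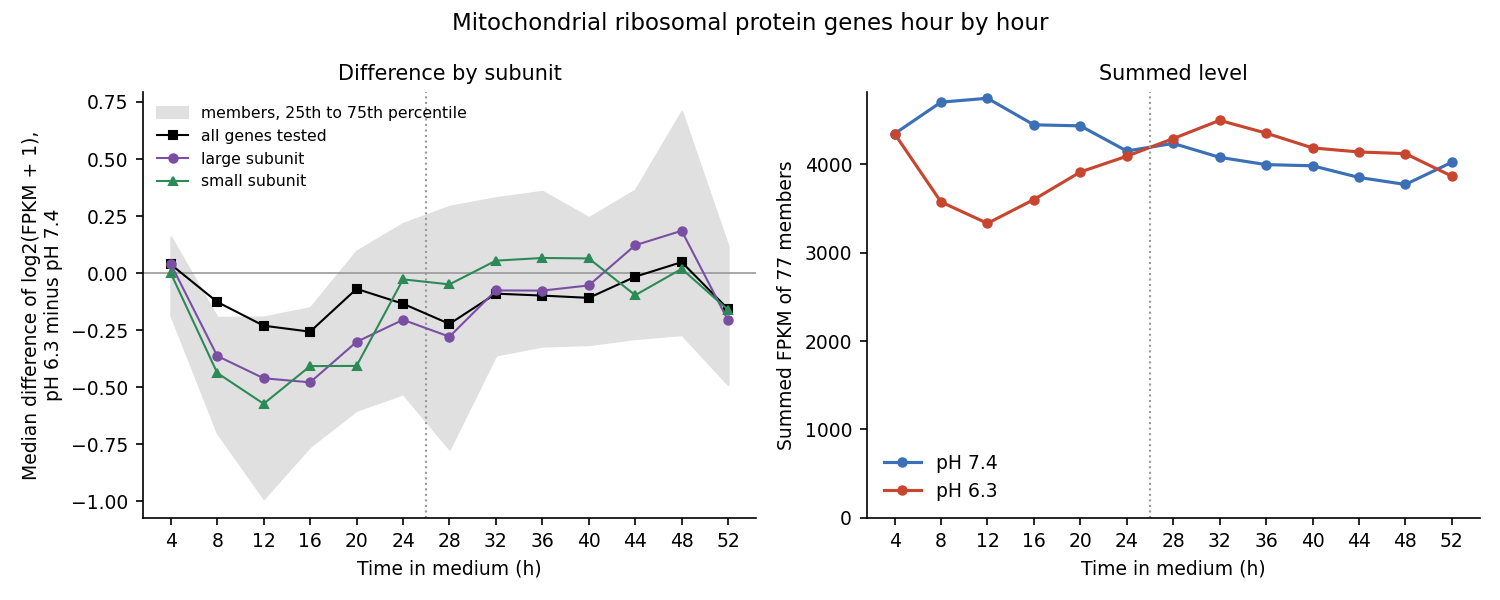
Left, the median difference of log2(FPKM + 1) between pH 6.3 and pH 7.4 at each hour (x axis, h) for the large subunit, the small subunit and all genes tested, with the 25th to 75th percentile of the 77 members shaded. Right, the summed FPKM of the members in each medium. The dotted line parts the plate sets. The sum at pH 6.3 lies lowest at 12 h (3333 FPKM) and above that at pH 7.4 from 28 to 48 h.

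Both subunits had negative medians from 8 to 28 h, with no steady order between them. At 8 h the median difference was -0.36 in the large and -0.44 in the small subunit, at 12 h -0.46 and -0.57, and at 16 h -0.48 and -0.41. The subunits lay farther apart later, with -0.28 and -0.05 at 28 h. Their medians had opposite signs at 32, 36 and 40 h, with the large subunit lower (-0.08 and 0.05 at 32 h). At 44 h the signs were opposite the other way, with 0.12 and -0.10. The large subunit median lay above the small at 6 of 13 hours. The ratio of summed FPKM of the large to the small subunit ran from 1.65 to 1.92 at pH 7.4 and from 1.67 to 1.97 at pH 6.3. When each gene was first averaged over the 13 hours, the median over genes was -0.22 in the large and -0.19 in the small subunit. Placing MRPS18A and MRPS30 with the large subunit and leaving out MRPS36, a grouping chosen after seeing the data, moved the difference of these medians from -0.04 to -0.03. These are descriptions, with no test of one subunit against the other.

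The effect of acidic medium was tested as the mean of the 13 differences within time points (limma, adjusted over all genes tested). Of the 77 members 11 rose, beside 22.4% of all genes tested, 32 fell, beside 37.3%, and 34 were not called. The shares of members were 14.3% and 41.6%. The median difference was -0.19 over members and -0.12 over all genes. As another statistic, chosen after seeing the data, the median over members was taken at each hour and averaged over the 13 hours. That mean was -0.16, and -0.05 when the median of all genes was subtracted at each hour. In the large subunit 8 of 48 rose and 20 fell, and in the small subunit 3 of 29 rose and 12 fell. The 34 members not called had estimates from -0.24 to 0.47. Under quantile normalization, which moves the median of all genes by 0.11, 15 members rose and 29 fell. Over all 11838 genes tested, 3348 rose and 3611 fell under it. Without the pairs of 8, 12, 20 and 28 h, 14 members rose and 19 fell, beside 2818 and 4093 of all genes. Of those calls 42.4% were increases in members and 40.8% over all genes, against 25.6% and 37.5% with all pairs. Without any 1 of the pairs of 20, 24, 32, 36, 40, 44 or 48 h, 6 or 7 members rose, beside 2423 to 2493 of all genes.

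The 2 plate sets differed. Within 4 to 24 h, 1 member rose, beside 8.57% of all genes, and 27 fell, beside 18.1%, with a median of -0.33 against -0.14 over all genes. Within 28 to 52 h, 19 rose, beside 27% of all genes, and 19 fell, beside 36.4%, with a median of -0.06 against -0.10. Of the 27 that fell early, 12 also fell late, 14 were not called late and 1, MRPS18C, rose late. Tested as an interaction, the effect of acid was higher late than early in 15 members, beside 10.5% of all genes, and lower in 0, beside 6.56%. At an unadjusted p under 0.05 limma gave 27 of 77 members and 3804 of 11838 genes tested. The median of this interaction was 0.29 over members and 0.07 over all genes. A positive estimate was found in 63 of 77 members and in 6665 of 11838 genes tested. The 15 calls depend on the pairs and the scaling used. There were 2 without the pairs of 8, 12, 20 and 28 h, 7 to 9 without any 1 of the pairs of 8, 12, 16, 32, 36 or 40 h, 7 with upper-quartile scaling and 8 with quantile normalization.

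**Figure D2:**
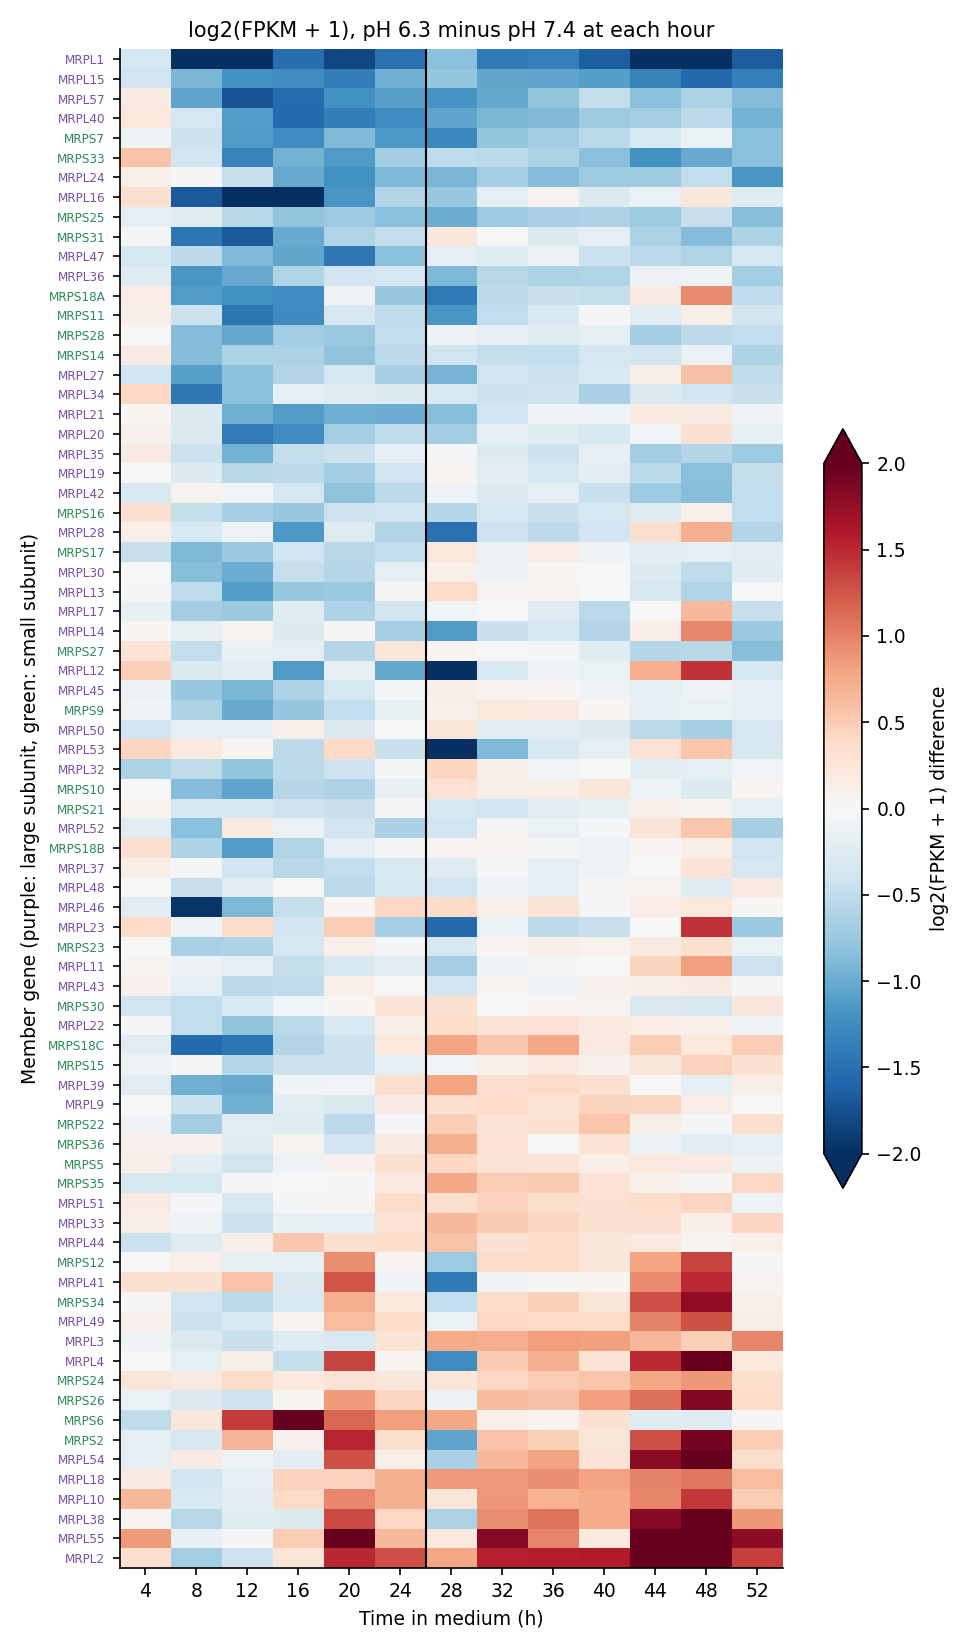
Each row is 1 of the 77 members, ordered by its mean difference over 13 hours, and each column is an hour (x axis, h); colour gives log2(FPKM + 1) at pH 6.3 minus pH 7.4, from -2 (blue) to 2 (red). Most rows are blue from 8 to 20 h. Many of the lowest rows are already red at 20 h (MRPL55 2.23, MRPL2 1.51) and are red from 32 h on. The 28 h column is blue and the 48 h column red for many of the same genes.

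Among the genes that fell, MRPL1 codes for the protein of the mobile stalk that lets used tRNA leave the ribosome. At pH 7.4 it had 66.0, 93.6, 85.8, 85.1, 77.2 and 63.5 FPKM from 4 to 24 h and 46.2 to 80.8 FPKM from 28 to 52 h. At pH 6.3 it had 51.5 FPKM at 4 h, then 20.7, 20.1, 28.9, 21.2 and 21.9 FPKM up to 24 h, and 16.3 to 27.2 FPKM from 28 to 52 h. It was lower at pH 6.3 at 13 of 13 hours, and the groups overlapped only through the acid library of 4 h and the neutral library of 28 h. The difference was -1.57 ± 0.13 (SE, adjusted p = 2.38e-07), the largest decrease of the 77, and it was -1.56 early and -1.57 late.

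MRPL15, a core protein of the large subunit, had 63.4 to 87.3 FPKM (median 74.8) at pH 7.4 and 25.8 to 62.9 FPKM (median 35.3) at pH 6.3. It was one of the 2 members whose groups did not overlap, beside MRPS24, which is 2.60% of members against 3.66% of all genes tested. Its difference was -1.10 ± 0.09 (SE, adjusted p = 1.64e-07). The highest acid value was that of 4 h, and from 12 h on the acid libraries held 25.8 to 38.3 FPKM.

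MRPS7, a protein of the head of the small subunit, went from 54.9 to 87.6 FPKM at pH 7.4 (median 78.1) and from 32.4 to 76.5 FPKM at pH 6.3 (median 42.6). It was lower at 13 of 13 hours with a difference of -0.73 ± 0.11 (SE, adjusted p = 3.97e-05), though the groups overlapped through the acid libraries of 4 and 8 h. MRPL57, a protein particular to mitochondria, had 5.58 to 8.67 FPKM (median 6.43) at pH 7.4 and 1.66 to 6.48 FPKM (median 2.80) at pH 6.3. Its difference was -0.94 ± 0.13 (SE, adjusted p = 2.28e-05), with 4 h the 1 hour at which it was higher.

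The other decreases among the 10 largest were MRPL40 (-0.86), MRPS33 (-0.73), MRPL24 (-0.70), MRPL16 (-0.66), MRPS25 (-0.64) and MRPS31 (-0.59). MRPL24 codes for a protein near the exit tunnel, and it had 86.5 FPKM at 4 h and 43.8 FPKM at 48 h in neutral medium, against 92.6 and 30.8 FPKM in acidic medium. MRPS25 was lower at all 13 hours, with 27.9 to 45.6 FPKM (median 31.6) at pH 7.4 and 16.9 to 40.1 FPKM (median 18.7) at pH 6.3. In all, 7 members were lower at 13 of 13 hours: MRPL1, MRPL15, MRPS7, MRPS25, MRPL47, MRPL36 and MRPS28. That is every member with this pattern, and over all genes tested 8.19% had it.

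**Figure D3:**
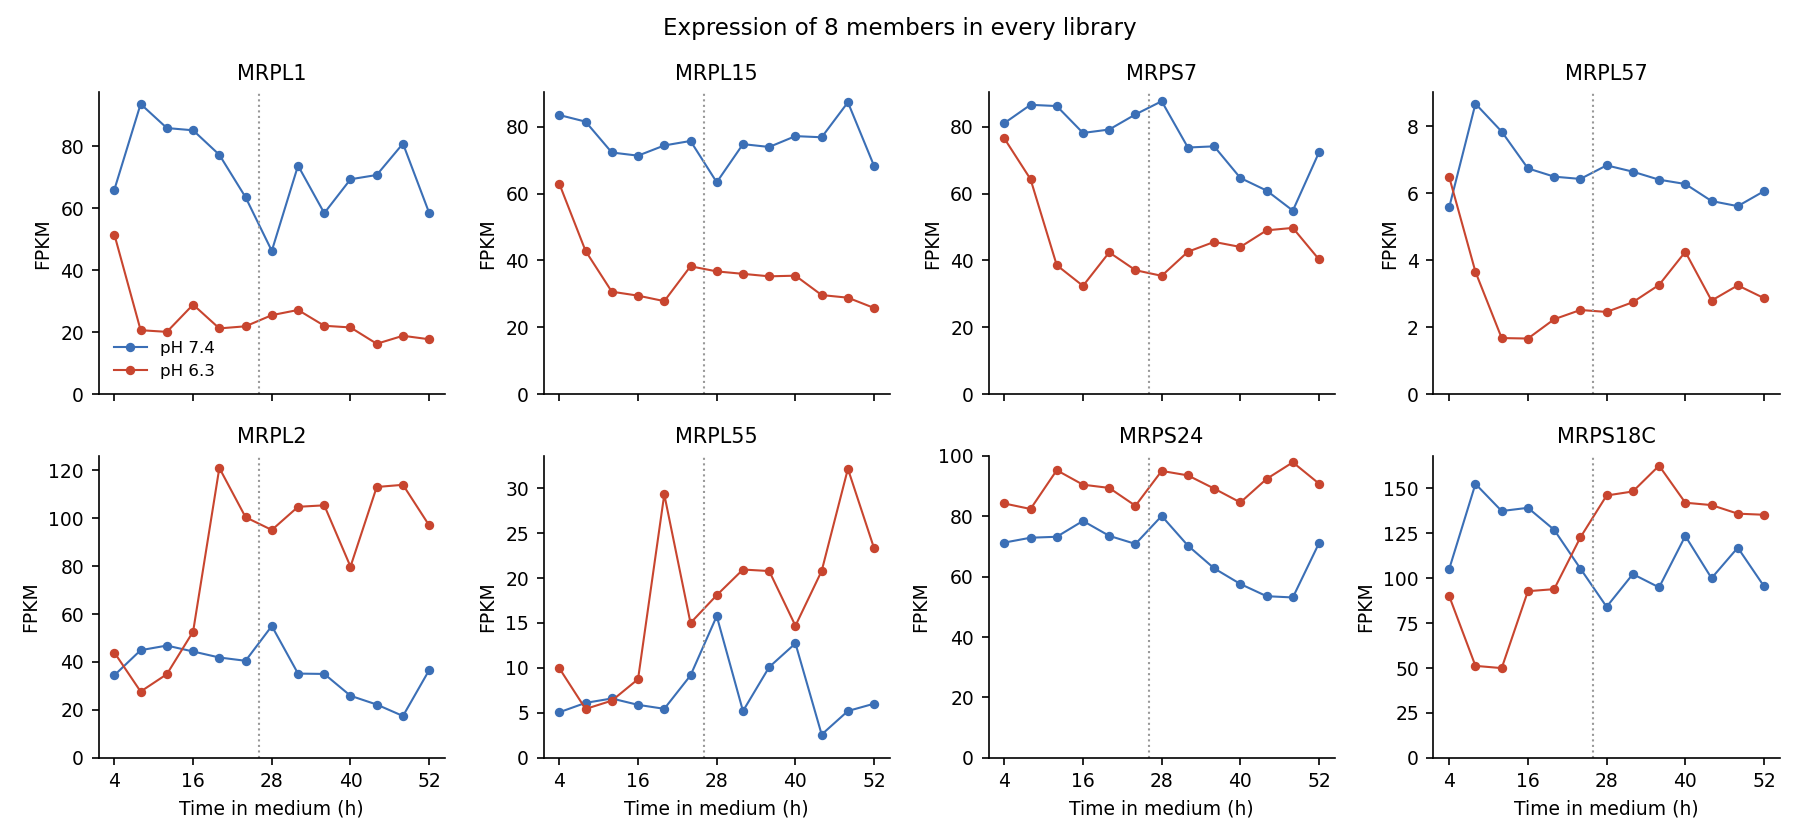
FPKM of 8 members in every library (y axis, from 0) against time in the medium (x axis, h), with pH 7.4 in blue and pH 6.3 in red and the dotted line between plate sets. In MRPL1 and MRPL15 the acid values lie below the neutral ones at all hours, in MRPS24 above at all hours, and in MRPS18C the lines cross between 20 and 24 h.

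Of the genes that rose, MRPL2 codes for a protein beside the catalytic centre of the large subunit. Its values at pH 7.4 were 34.5, 44.9, 46.9, 44.4, 41.9 and 40.5 FPKM from 4 to 24 h and ran from 17.5 to 55.0 FPKM later. At pH 6.3 they were 43.9, 27.7, 34.9, 52.7, 121 and 100.4 FPKM up to 24 h and 79.8 to 114 FPKM later. The acid library was lower at 8 and 12 h and higher at the other 11 hours, and from 20 h on all acid values lay above all neutral ones. The difference was 1.08 ± 0.24 (SE, adjusted p = 9.79e-04) over all hours, 0.38 early (adjusted p = 0.305) and 1.68 late (adjusted p = 9.13e-05).

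MRPL55, a mitochondria-specific protein of the large subunit, had 2.59 to 15.8 FPKM (median 6.03) at pH 7.4 and 5.44 to 32.1 FPKM (median 18.1) at pH 6.3. It was higher at 11 of 13 hours, with a difference of 1.08 ± 0.24 (SE, adjusted p = 0.00106), and its highest neutral library was that of 28 h. MRPS24, a protein of the head of the small subunit, was higher at all 13 hours. It ran from 53.1 to 80.1 FPKM (median 71.1) at pH 7.4 and from 82.4 to 97.9 FPKM (median 90.5) at pH 6.3, without overlap, and differed by 0.40 ± 0.07 (SE, adjusted p = 1.92e-04). A readthrough gene that joins URGCP and MRPS24 covers the whole MRPS24 gene on the same strand, so reads may be divided between them.

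The other increases among the 10 largest were MRPL38 (0.63), MRPL10 (0.59), MRPL18 (0.56), MRPL54 (0.49), MRPS6 (0.47), MRPS26 (0.44) and MRPL3 (0.32). MRPL10 anchors the stalk that recruits translation factors, and it was higher at 11 of 13 hours with 11.3 to 25.2 FPKM at pH 7.4 and 16.7 to 42.8 FPKM at pH 6.3. MRPL18, of the central protuberance, had 60.8 to 102 FPKM (median 79.9) at pH 7.4 and 76.7 to 144 FPKM (median 121) at pH 6.3. MRPL51, the most abundant member, was the other call, with a difference of 0.18 ± 0.07 (SE, adjusted p = 0.0431). The calls of MRPL38, MRPL54, MRPS26, MRPS6, MRPL3 and MRPL51 were each lost under 5 to 11 of 23 alternatives.

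Several of these increases were in GC-rich genes. MRPL38 (64.6% GC), MRPS26 (63.4%), MRPL54 (60.9%) and MRPL55 (59.9%) lie in the GC-rich part of the members, whose median is 47.6%. Of the 38 members above that median 8 rose and 14 fell, and of the 39 others 3 rose and 18 fell. Pearson's r of GC content and the difference over all hours was 0.27 across members and 0.09 across all genes. The 38 members above the median GC content had a median difference of -0.68 at 28 h and 0.67 at 48 h, hours with a neutral library in which values followed GC. The other 39 had 0.12 and -0.19 at those hours. At 12 h both were lower, with -0.39 and -0.66, and at 16 h with -0.38 and -0.48. After a linear correction for GC in each library 16 members rose and 33 fell, beside 2855 and 4707 of 11838 genes tested.

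MRPS6, of the small subunit, was highest in acidic medium at 12 and 16 h, when most members were lower there than in neutral medium. At pH 7.4 it had 85.8, 108, 69.7, 47.5, 57.6 and 57.4 FPKM from 4 to 24 h, and at pH 6.3 60.3, 126, 186, 227, 129 and 103 FPKM. From 28 to 52 h it had 56.9 to 94.1 and 71.7 to 99.2 FPKM, and the groups overlapped. It was the single member called higher early (0.89, adjusted p = 0.0418), and its late difference was 0.11. The gene spans that of SLC5A3, a myo-inositol transporter, on the same strand of chromosome 21, so reads can be divided between them. SLC5A3 was counted on a row of its own, with 13.3 and 20.1 FPKM at 12 h and 10.2 and 26.5 FPKM at 16 h in neutral and acidic medium. At 8 h SLC5A3 was lower in acid (46.6 and 14.7 FPKM) while MRPS6 was higher, and over 4 to 24 h it differed by -0.05 (adjusted p = 0.925).

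The interaction of acid and plate set was largest in MRPL2 (1.30 ± 0.36, SE, adjusted p = 0.0228), followed by MRPS18C (1.17 ± 0.25, adjusted p = 0.00636), MRPL16 (1.04 ± 0.34, adjusted p = 0.0455) and MRPL3 (0.93 ± 0.13, adjusted p = 7.34e-04). MRPL16, which sits near the catalytic centre, had 31.6, 35.4 and 33.5 FPKM at 8, 12 and 16 h at pH 7.4 and 9.16, 7.10 and 7.49 FPKM at pH 6.3. From 28 to 52 h it had 17.4 to 32.2 and 18.5 to 23.2 FPKM, with the groups overlapping. The call of MRPL16 was lost in 14 of 22 alternatives, that of MRPL2 in 3, of MRPS18C in 2 and of MRPL3 in 1.

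MRPL3, another protein beside the catalytic centre, had 85.6 to 107 FPKM at pH 7.4 and 70.1 to 103 FPKM at pH 6.3 from 4 to 24 h. From 28 to 52 h it had at most 95.1 FPKM at pH 7.4 and 126 to 151 FPKM at pH 6.3, without overlap. Its difference was -0.19 early (adjusted p = 0.254) and 0.75 late (adjusted p = 1.57e-05).

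**Figure D4:**
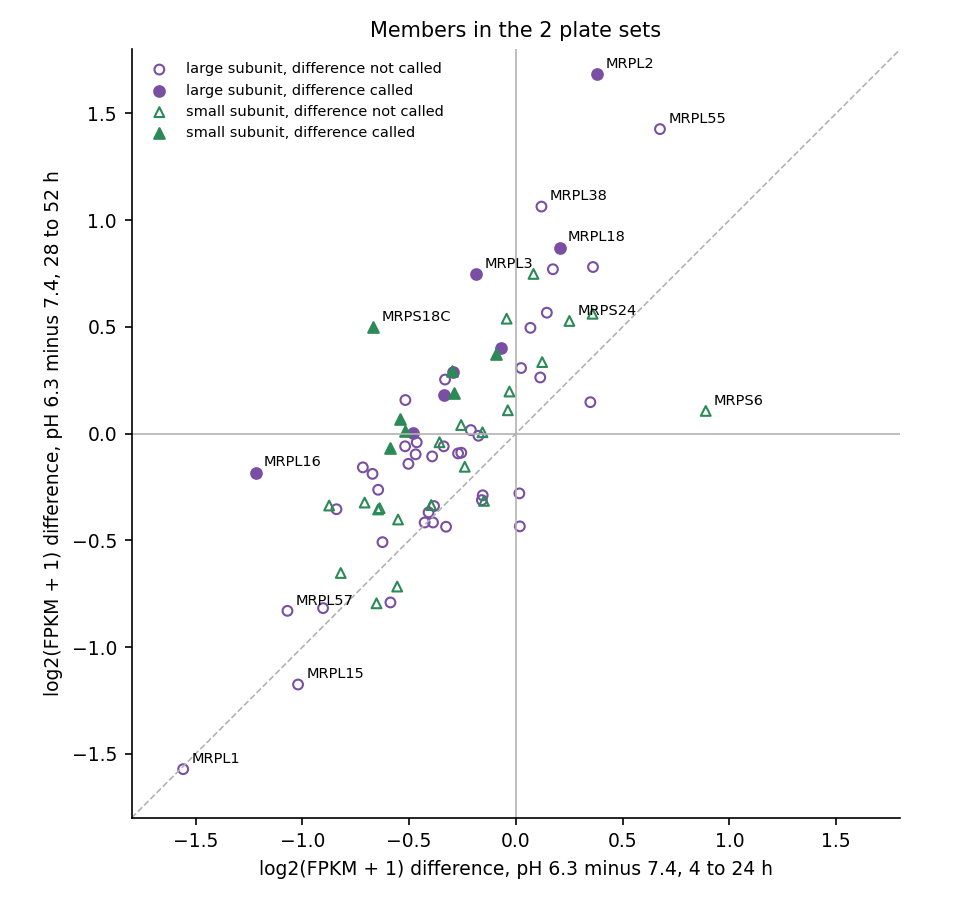
Each point is 1 member, with its log2(FPKM + 1) difference between pH 6.3 and pH 7.4 over 4 to 24 h (x axis) and over 28 to 52 h (y axis); filled points are the 15 whose differences were called unequal. The dashed line marks equal differences, and 63 of 77 points lie above it. MRPL1 and MRPL15 lie far down near the line, and MRPS6 lies below it.

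MRPS18A, MRPS18B and MRPS18C are 3 genes for relatives of 1 bacterial protein, and each product has its own place in the ribosome. Their levels differed, with means over 26 libraries of 15.4, 35.4 and 115 FPKM. MRPS18A fell (-0.50 ± 0.17, SE, adjusted p = 0.0189), with 7.68 to 32.9 FPKM (median 18.5) at pH 7.4 and 8.15 to 19.1 FPKM (median 12.7) at pH 6.3. MRPS18B differed by -0.19 (adjusted p = 0.146). MRPS18C had 105, 153, 137, 139, 127 and 105 FPKM from 4 to 24 h at pH 7.4 and 90.0, 51.2, 49.95, 92.8, 93.9 and 123 FPKM at pH 6.3. From 28 to 52 h it had 84.1 to 124 FPKM at pH 7.4 and 135 to 163 FPKM at pH 6.3, without overlap. It was lower in acid up to 20 h and higher at every hour from 24 h, with differences of -0.67 early (adjusted p = 0.0441) and 0.50 late (adjusted p = 8.53e-04). Averaged over all hours these left -0.04, a value whose sign changed under 6 alternatives.

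The second day was compared with the first in libraries of the same medium 24 h apart, which were harvested together (6 pairs per medium). At pH 7.4, 0 members rose, beside 3.18% of all genes, and 5 fell, beside 2.81%. The median was -0.21 against -0.01 over all genes. Estimates were negative in 63 of 77 members and in 6163 of 11838 genes tested. The 5 were MRPL54 (-0.80, adjusted p = 0.0328), MRPL27 (-0.61, adjusted p = 0.0124), MRPS18B, MRPL37 and MRPL9. At an unadjusted p under 0.05 limma gave 18 of 77 members and 2347 of 11838 genes tested. The count at pH 7.4 was 0 without any 1 of the pairs of 8, 12, 16 or 20 h with their partners, and 20 without the pair of 4 and 28 h.

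At pH 6.3, 18 members rose, beside 21.1% of all genes, and 2 fell, beside 13.3%, with a median of 0.12 against 0.06 over all genes. The largest increases were MRPL55 (0.90, adjusted p = 0.0352) and MRPS18C (0.87, adjusted p = 0.00140), and the decreases were MRPL23 (-0.85, adjusted p = 0.0262) and MRPL24 (-0.67, adjusted p = 0.00387), both proteins near the exit tunnel. The number that rose was 8 without the pair of 8 and 32 h or of 12 and 36 h, and 10 without that of 16 and 40 h. These comparisons share libraries with the interaction above.

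A 24 h rhythm was tested because dexamethasone sets the clocks of the cells to 1 phase. At pH 7.4, 0 members were called, beside 0.0422% of all genes (5 genes), and at pH 6.3 0 members, beside 0%. At an unadjusted p under 0.05 limma gave 0 of 77 members and 443 genes at pH 7.4, and 6 members and 1083 genes at pH 6.3. The fitted amplitude of log2(FPKM + 1) had a median of 0.09 over members at pH 7.4 and 0.16 at pH 6.3, against 0.12 and 0.16 over all genes.

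Other genes of mitochondrial gene expression were read from the same fit, in which 22.4% of all genes rose and 37.3% fell. Of 7 genes listed as mitoribosome proteins outside the name rule, 1 rose (14.3%) and 3 fell (42.9%). Both the 7 and the 3 include OXA1L, which is not itself a ribosomal protein. AURKAIP1 rose from 8.34 ± 5.11 to 14.3 ± 6.67 FPKM (SD, n = 13 per pH), and OXA1L, the insertase of the inner membrane, fell from 44.1 ± 3.37 to 32.5 ± 4.14 FPKM. DAP3, a GTP-binding protein of the small subunit, had 151 ± 13.9 and 156 ± 13.6 FPKM and was not called. Of 27 genes of ribosome assembly and rRNA processing, 5 rose (18.5%) and 16 fell (59.3%), with a median difference of -0.35. The GTPase MTG1 fell from 19.4 ± 3.13 to 6.06 ± 3.44 FPKM and MTERF3 from 16.6 ± 2.14 to 7.01 ± 1.70 FPKM, while the RNA methyltransferase NSUN4 rose from 9.12 ± 1.37 to 17.8 ± 4.76 FPKM.

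Among 16 mitochondrial translation factors 11 fell (68.8%) and 5 were not called (median -0.45), led by TACO1, an activator of COX1 translation (-0.98), and GUF1 (-0.92). Of 7 transcription genes 2 rose, POLRMT (0.77), the polymerase, and TFB2M (0.68), and 4 fell, among them MTERF1 (-0.97) and TEFM (-0.74), the elongation factor. Of 17 mitochondrial aminoacyl-tRNA synthetases 2 rose, TARS2 (0.65) and RARS2 (0.43), and 6 fell (35.3%, near the share over all genes), among them FARS2 (-0.76).

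The products of the ribosome are the 13 proteins of mitochondrial DNA, and all 13 of their transcripts fell, with a median of -0.47. MT-CYB, of complex III, fell from 4936 ± 156 to 2682 ± 554 FPKM (SD, n = 13 per pH) and MT-CO3, of complex IV, from 12884 ± 1050 to 7195 ± 1353 FPKM. Their summed FPKM was 126635 ± 7725 at pH 7.4 and 87567 ± 10912 at pH 6.3, lower at 13 of 13 hours. Quantile normalization gives each rank the same value in every library and so can remove a joint fall of the most abundant transcripts. Under it 1 rose and 7 fell. Since these transcripts make up a large share of each library, the columns were also scaled to a common sum without them. With that scaling 7 members rose and 41 fell, beside 2282 and 4990 of 11838 genes tested.

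Of 11 regulators of nuclear mitochondrial genes 2 rose and 4 fell (18.2% and 36.4%, near the shares over all genes). MYC rose from 13.2 ± 6.78 to 22.5 ± 11.9 FPKM and SP1 from 23.7 ± 0.974 to 32.2 ± 6.62 FPKM. PPARGC1A, a coactivator of mitochondrial biogenesis, fell from 4.56 ± 2.18 to 1.92 ± 1.20 FPKM, and GABPB2, a partner of GABPA, from 2.73 ± 0.470 to 1.61 ± 0.914 FPKM. NRF1 and YY1, whose motifs were searched above, were not called (-0.06 and -0.03), and GABPA fell (-0.33, adjusted p = 0.00283).

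Of 15 chaperones, proteases and import proteins 7 rose (46.7%) and 3 fell (20%), beside 22.4% and 37.3% of all genes, with a median of 0.27. TOMM20, an import receptor of the outer membrane, rose from 49.2 ± 9.72 to 109 ± 13.3 FPKM and the protease LONP1 from 5.91 ± 2.47 to 11.4 ± 4.72 FPKM, while PHB fell from 158 ± 31.8 to 100.8 ± 38.3 FPKM and HSPE1 from 264 ± 37.3 to 187 ± 73.5 FPKM. Of 86 genes of cytosolic ribosomal proteins and their near relatives by name, 76 rose (88.4%) and 3 fell (3.49%). Their median was 0.43, and under quantile normalization 59 rose and 4 fell. RPS28 (0.88) and RPLP2 (0.85) led the increases and RPL22L1 (-0.85) and RPL7L1 (-0.44), both relatives by name, the decreases. Within 4 to 24 h, 65 of these 86 rose and 1 of the 77 mitochondrial ribosomal protein genes did, beside 8.57% of all genes. The fit within 4 to 24 h was not repeated under other scalings.

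**Figure D5:**
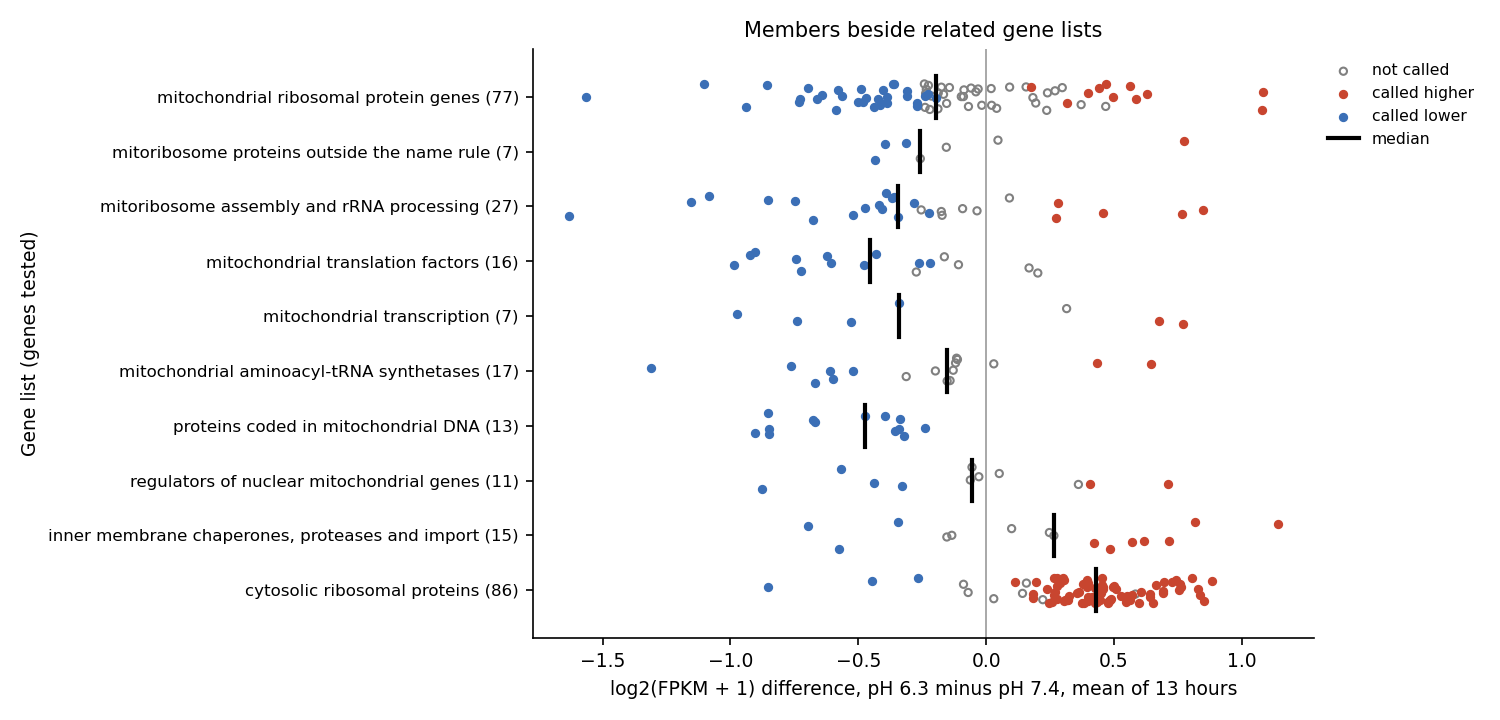
Each point is 1 gene at its mean log2(FPKM + 1) difference between pH 6.3 and pH 7.4 over 13 hours (x axis), by gene list (y axis, with the number tested); red and blue points were called higher and lower, open points were not called, and the bar is the median. The median is -0.19 for the mitochondrial ribosomal protein genes, -0.47 for the proteins coded in mitochondrial DNA and 0.43 for the cytosolic ribosomal proteins.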

How the data were processed

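The authors deposited 1 table of FPKM values for 26 libraries, made with STAR and Cufflinks on hg38, per the submitters' processing notes. Tool versions, annotation release and strand option were not given in the sources used here. Library totals are not in the table, and depth was estimated from low values of 1831 genes with 1 transcript. One row per symbol was kept (the highest mean), and those whose mean reached 1 FPKM were tested as log2(FPKM + 1), which understates the change of low genes. Tests used limma 3.58.1 (R 4.3.3) with a mean-dependent empirical Bayes prior, Benjamini-Hochberg adjustment over 11838 genes and a threshold of 0.05. The time point was a block for the acid effect, because both media were harvested together, and the pair 24 h apart was a block for the day difference. The interaction of pH and plate set tested the early against the late effect. Rhythms used cosine and sine terms of 24 h with a linear trend per pH. "Rose" and "fell" mean a called difference, pH 6.3 minus pH 7.4 or second minus first day.

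Alternatives changed the pseudocount (0.1), the filter (5 FPKM or none), the scaling (upper quartile, quantile, a common sum without mitochondrial DNA genes), GC content, the block and the pairs used. The steps were tested on simulated data. The members and gene lists were chosen with earlier results of these data known. Named genes were the 10 largest called increases and decreases, the 4 largest plate set differences, the 3 highest and lowest levels, the 2 largest day differences each way, the MRPS18 genes and up to 2 called genes each way per list, of which 1 is not reported here. DAP3, NRF1, GABPA, YY1, SLC5A3, the members lower or higher at all hours, the printed promoters and the other named calls at pH 7.4 were added after their values were seen. GC content and positions came from GENCODE 29, and no sequence of proteins was used here.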

Additional observations from a re-analysis of the deposited data

Results flagged for a closer look

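The effect of acid differed between the plate sets in 15 members by limma's interaction test adjusted over all genes, on the log2(FPKM + 1) scale, 28 to 52 h minus 4 to 24 h. In the large subunit these were MRPL2 (1.30), MRPL16 (1.04), MRPL3 (0.93), MRPL18 (0.67), MRPL9 (0.58), MRPL22 (0.52), MRPL32 (0.48) and MRPL33 (0.47). In the small subunit they were MRPS18C (1.17), MRPS10 (0.61), MRPS22 (0.59), MRPS9 (0.53), MRPS17 (0.52), MRPS15 (0.48) and MRPS35 (0.47). All 15 were higher late than early, and the part of plate set and of time in the medium cannot be told apart.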

How the results depend on the processing

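The acid effect called 11 members higher and 32 lower. Higher calls were 6 with no filter and 7 with a common sum without mitochondrial DNA genes, and 6 to 14 leaving out 1 time point (6 or 7 without 20, 24, 32, 36, 40, 44 or 48 h). Over all genes, higher calls were 3029 of 18288 with no filter and 2282 of 11838 with that common sum. Lower calls were 19 without the pairs of 8, 12, 20 and 28 h, beside 4093 of 11838 genes tested. Leaving out 1 time point gave 26 to 34 lower calls. The interaction with plate set, with 15 higher and 0 lower, gave 7 higher with upper-quartile scaling, 8 with quantile normalization, 2 without the 4 pairs of 8, 12, 20 and 28 h and 0 when those of 44 and 48 h were left out too. Leaving out 1 time point gave 7 to 20 higher (7 to 9 without 8, 12, 16, 32, 36 or 40 h) and 0 to 1 lower. For the day difference at pH 7.4 the 5 lower calls became 2 with a common sum and 0 to 20 leaving out 1 pair. At pH 6.3 the 2 lower calls became 1 with no filter, 5 with upper-quartile scaling, 4 with quantile normalization and 1 to 5 leaving out 1 pair, and the 18 higher calls 8 to 23.

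Without the time point as a block, 15 members were called higher and 35 lower, beside 2685 and 4492 of 11838 genes tested. MRPL41 changed from 0.24 to -0.0061 without 6 pairs. MRPS18C changed from -0.04 to 0.023 with the GC correction, 0.24 without 4 pairs, 0.20 without 6 pairs, and -0.11 to 0.086 leaving out 1 time point. Of the 20 members named for the acid effect, 14 kept their call under all alternatives that tested them. The causes were not tested. One library per pH and time limits all results.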
